A study of Bos taurus with 36 samples.

Results

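Serotonin made by the milk-secreting epithelium, parathyroid hormone-like hormone (PTHLH) and the calcium pumps of the same cells form a loop that regulates milk secretion and calcium supply in the lactating mammary gland. Described here are 6 of its genes: PTHLH, TPH1, CASR, ATP2B1, ATP2B2 and ATP2C1. They were found by symbol, as every probe set whose single gene symbol in the array annotation was 1 of these 6. This gave 7 probe sets of 5 genes, out of 24016 probe sets tested and 9155 genes with a probe set of their own. PTHLH, CASR, ATP2B2 and ATP2C1 had 1 probe set each and ATP2B1 had 3, whereas no probe set carried the symbol TPH1, which was not analysed here.

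The tissue came from 6 multiparous Holstein cows under unilateral frequent milking (UFM). The right side of each udder was milked 4 times daily (4×) and the left side 2 times daily (2×, labelled control) from day 1 to day 21 of lactation, after which both sides were milked 2 times daily. The names 4× and 2× are kept for the glands of these sides on days 23 and 40, when milking no longer differed. Every cow gave 1 biopsy from each side on days 21, 23 and 40, so that 6 groups of 6 arrays (36 in all) were compared. The biopsies of day 23 came from fore glands and all others from rear glands, and therefore day 23 and gland position cannot be told apart. The 4× gland was always a right gland, and side and milking frequency cannot be told apart either. Each biopsy held all the cells of the tissue, in which fewer cells of a type and less RNA per cell cannot be told apart.

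As background, TPH1 makes the rate-limiting enzyme of serotonin synthesis outside the nervous system, and serotonin acting on mammary epithelium is known to raise PTHLH expression. PTHLH is the secreted hormone that releases calcium from bone during lactation through the receptor PTH1R, and the calcium-sensing receptor CASR adjusts its release to the calcium supply. Calcium then leaves the epithelial cell by plasma membrane pumps (ATP2B1, a broadly expressed pump, and ATP2B2, the main apical pump of mouse mammary epithelium in lactation) or is loaded into the Golgi, where casein is packed, by ATP2C1.

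Levels below are the authors' log2 signals, in which 1 unit is a 2-fold step. They compare arrays for 1 probe set. Between probe sets they were used just to rank or group probe sets by brightness. Differential expression (4× minus 2×) is taken within a cow and day, on the log2 scale. It was tested with limma over all probe sets, with 1 spread shared by the 3 days. An SE given for 1 day therefore also holds the spread of the cows on the other days. Adjusted p-values are those of Benjamini and Hochberg. Secretory tissue was present on every array: the mean level of 9 milk-secreting markers measured of 10 listed, the caseins and LALBA among them, lay between 13.70 and 14.15. The 2× array of cow 1 on day 21 stood apart. It was the lowest of the 36 arrays in the milk-secreting markers (13.70, against 13.99 to 14.12 in the 2× glands of the other cows that day). Its mean of 5 general epithelial markers, such as EPCAM and KRT18, was the highest of the 36 arrays (10.23 against 8.74 to 9.38). So was its mean of the 2 platelet markers measured of 5 (6.57 against 4.41 to 4.58). Where leaving out cow 1 moved a value past the threshold by much, the value without it is given beside it.

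No member probe set passed an adjusted p of 0.05 in any comparison of the glands, nor did any of the 24016 probe sets (0% on days 21, 23 and 40, and 0% for either change between days). At an unadjusted p under 0.05, the members stood as follows. On day 21, during UFM, 3 of the 7 probe sets were past it, where 15.9% of all probe sets were: PTHLH, higher in the 4× gland, and 2 probe sets of ATP2B1, lower in the 4× gland. On day 23, 2 days after UFM had ended, 0 of 7 were past it (2.64% of all probe sets). On day 40, 2 of 7 were past it, where 20.4% of all probe sets were, and both were the same probe sets of ATP2B1, again lower in the 4× gland. CASR, ATP2B2, ATP2C1 and the third ATP2B1 probe set were not past it on any day.

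**Figure D1:**
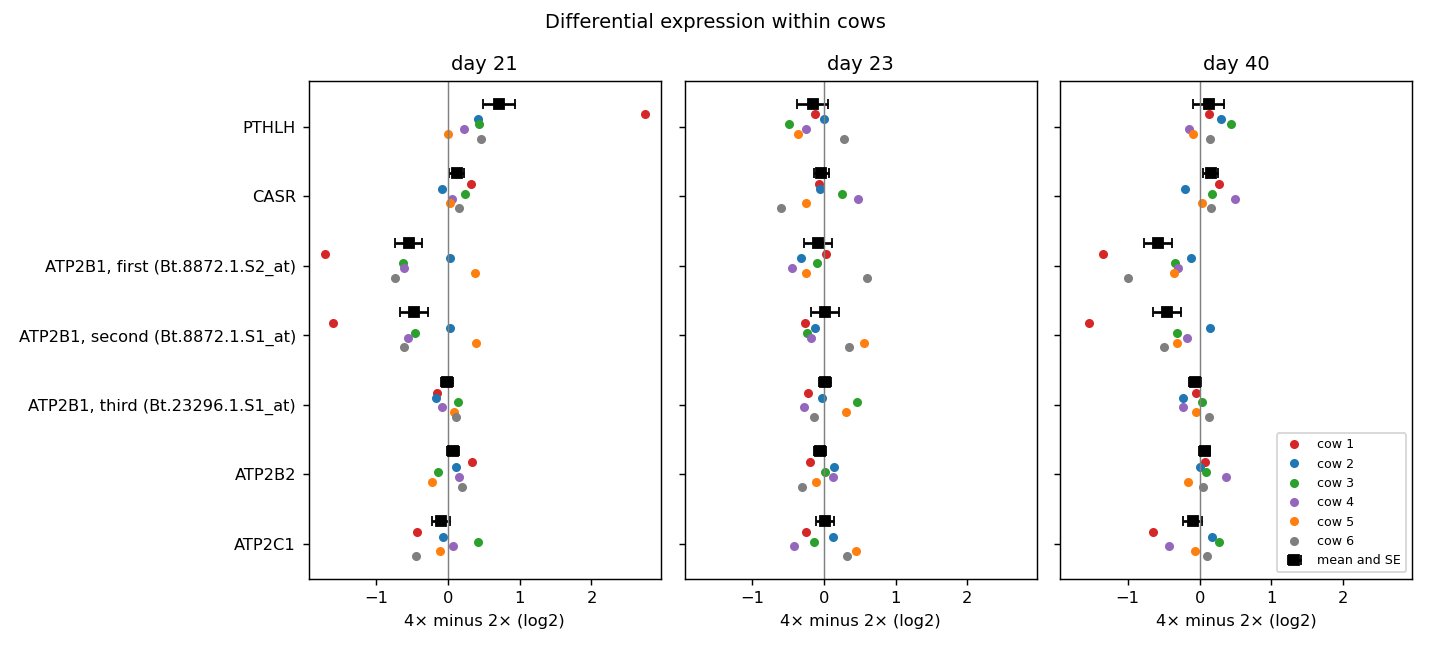
Difference 4× minus 2× (log2, horizontal axis) of the 7 member probe sets on days 21, 23 and 40, with a coloured point for each of 6 cows and a black square with bar for the mean and its limma SE. PTHLH lay at or above 0 in 6 of 6 cows on day 21, cow 1 far to the right at 2.74, and the first probe set of ATP2B1 lay below 0 in 6 of 6 cows on day 40.

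PTHLH had a mean level of 10.05 over the 36 arrays, above 96.4% of the probe sets. In the 2× glands on day 21 its level was 7.43 in cow 1, 9.67 in cow 2, 9.67 in cow 3, 10.52 in cow 4, 9.99 in cow 5 and 9.45 in cow 6. In the 4× glands on the same day the levels were 10.17, 10.09, 10.10, 10.74, 9.99 and 9.90 in cows 1 to 6. The 2× gland of cow 1 was thus low by itself, at 7.43 where no other of the 36 arrays was under 9.45, and the other cows' glands overlapped. Within cows, the 4× gland was the higher by 2.74 in cow 1 and by 0.22 to 0.46 in cows 2, 3, 4 and 6, and by 0.0013 in cow 5. The mean difference was 0.71 (SE 0.22, n = 6), a fold of 1.64, with an adjusted p of 0.181 in limma. Flipping the signs of the 6 cows in all 64 ways, an exact permutation test with 2 sides, gave p = 0.031, the smallest it allows. Without cow 1 the mean was 0.31, higher in 5 of 5 cows, and the same exact test gave p = 0.062, the smallest that 5 cows allow. One cow thus carried more of the mean than the other 5 together, although the sign was shared.

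On day 23 the PTHLH level lay between 9.65 and 10.67 (median 10.22) in the 2× glands and between 9.68 and 10.42 (median 9.97) in the 4× glands. The groups overlapped over nearly their whole range. The difference was -0.16 (SE 0.22), negative in 5 of 6 cows, with an adjusted p of 1.00. On day 40 the 2× glands ranged from 9.53 to 10.44 (median 10.36) and the 4× glands from 9.67 to 10.80 (median 10.32). Here the difference was 0.13 (SE 0.22), positive in 4 of 6 cows, with an adjusted p of 0.744 and a 95% interval from -0.33 to 0.58. The SE and the interval hold the spread of day 21, with the far value of cow 1. Without the day 21 pair of cow 1 the SE was 0.09 on day 23 and on day 40.

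From day 21 to day 23 the PTHLH difference between glands moved by -0.87 (SE 0.31, adjusted p = 0.396 in limma), and the move was negative in 6 of 6 cows: -2.86 in cow 1, -0.42 in cow 2, -0.92 in cow 3, -0.47 in cow 4, -0.35 in cow 5 and -0.17 in cow 6. By the exact sign-flip test this gave p = 0.031, again the smallest possible, and without cow 1 the mean move was -0.47. Of the 7 member probe sets PTHLH was the 1 past an unadjusted p of 0.05 for this change, where 10.8% of all probe sets were. For the change from day 21 to day 40 there were 0 of 7 (6.01% of all probe sets), and the PTHLH value was -0.58 (SE 0.31, adjusted p = 0.789), or -0.18 without cow 1.

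**Figure D2:**
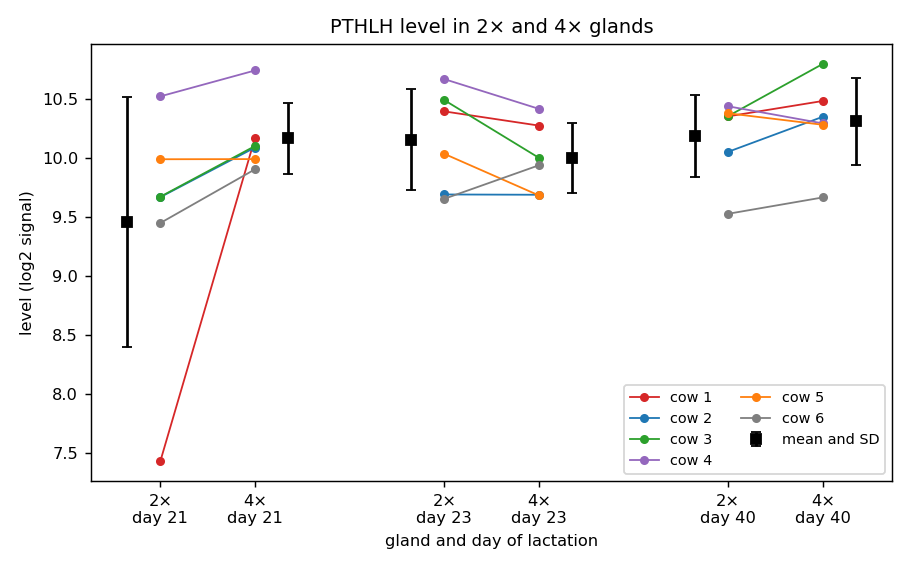
PTHLH level (log2 signal, vertical axis) in the 2× and 4× glands on days 21, 23 and 40, with lines joining the glands of 1 cow and black squares with bars for the mean and SD of 6 cows. On day 21 the 2× gland of cow 1 lay at 7.43, far below all other points, and the other 5 cows lay between 9.45 and 10.74.

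The lowest of the 6 group means was that of the 2× glands on day 21. In order, they were 9.45 ± 1.06 (SD, n = 6) in 2× on day 21, 10.0 ± 0.30 in 4× on day 23, 10.16 ± 0.43 in 2× on day 23, 10.17 ± 0.30 in 4× on day 21, 10.18 ± 0.35 in 2× on day 40 and 10.31 ± 0.37 in 4× on day 40. Between neighbours in this order, the exact sign-flip test of the steps within cows gave p from 0.219 to 0.906. Groups that are not neighbours, such as 2× and 4× on day 21, are not covered by these values. Within the 2× gland the level was 0.70 higher on day 23 than on day 21 (SE 0.26, adjusted p = 0.208 in limma), higher in 6 of 6 cows, and 0.73 higher on day 40 than on day 21 (SE 0.26, adjusted p = 0.533), higher in 5 of 6. Without cow 1 these values were 0.25 and 0.29, and neither stayed past an unadjusted p of 0.05. In the 4× gland the same steps were -0.17 and 0.15 (SE 0.26 each).

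On day 21 the marker lists moved within cows too. For the mean of the 5 general epithelial markers the difference was negative in all 6 cows, -0.45 ± 0.48 (SD), and -0.27 without cow 1. Their summed linear signal ran from 5867 to 14255 in the 2× glands and from 4713 to 7445 in the 4× glands. The mean of the 2 platelet markers measured, PF4 and ITGA2B, was also lower in 6 of 6 cows (-0.46 ± 0.70, and -0.18 without cow 1). By itself, PF4 was lower in 6 of 6 cows (-0.84, and -0.21 without cow 1), whereas ITGA2B was lower in 3 of 6 (-0.08). Both had a mean level under 5, and their summed signal ran from 42.7 to 468 in 2× and from 36.7 to 52.4 in 4×. The 9 milk-secreting markers differed by 0.08 ± 0.18 (0.01 without cow 1). Their mean levels, from 13.22 for XDH to 15.02 for the casein CSN2, lay near the top of the signal scale. CSN2 was positive in 1 cow and negative in 1 cow on day 21, with no difference in the others. How far these markers could show a change was not tested. The part of the epithelial, platelet and milk-secreting markers in the PTHLH and ATP2B1 values was not tested. The lowest mean level among these markers was 4.46, for PF4. Markers of myoepithelium, macrophages, endothelium, mast cells and of fibroblasts with adipocytes had mean differences from -0.21 to 0.10 on day 21, and in each of these lists both signs occurred among the cows.

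CASR, the receptor that senses extracellular calcium and is known to couple the calcium supply to PTHLH release, had a mean level of 5.88, above 46.1% of probe sets. On day 21 its level was 5.64 to 5.97 (median 5.81) in the 2× glands and 5.68 to 6.14 (median 5.94) in the 4× glands. On day 40 the 2× glands held 5.53 to 5.96 (median 5.81) and the 4× glands 5.59 to 6.21 (median 6.00). The glands overlapped on both days. The differences were 0.12 on day 21, -0.04 on day 23 and 0.15 on day 40 (SE 0.10 each). Adjusted p-values were 0.594, 1.00 and 0.384, with 5, 2 and 5 of 6 cows positive. The 95% intervals reached 0.34 on day 21 and 0.37 on day 40, so that CASR differences of up to these sizes lay within the error of 6 cows. CASR is among the 4298 genes with a mean under 7, of which 16% were higher and 4.91% lower in the 4× gland on day 40. The part of this lean in the CASR value and group order was not tested.

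The group means of CASR spanned 0.15: 5.79 in 2× on day 40, 5.80 in 2× on day 21, 5.89 in 4× on day 23, 5.92 in 2× on day 23, 5.92 in 4× on day 21 and 5.94 in 4× on day 40. Both 2× groups of rear glands were the lowest and both 4× groups of rear glands the highest. However, 4× on day 21 lay just 0.00092 above 2× on day 23. The step from 2× on day 21 to 4× on day 23, 0.085, was in the same direction in all cows (exact sign-flip p = 0.031). It was the 1 step to reach that value among all neighbouring groups of the 7 probe sets. Neighbours were set by ranking the same means, and these 2 groups differ in milking, day and gland position together. No conclusion is drawn from this step, and all other steps of CASR had p of 0.812 or more.

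ATP2B1 makes the plasma membrane calcium pump PMCA1, found in most cells. Its 3 probe sets are called the first, the second and the third here. By their identifiers the first and the second stand for 1 transcript cluster and the third for another. The first had levels of 8.18, 6.55, 7.04, 6.78, 6.71 and 7.03 in the 2× glands of cows 1 to 6 on day 21, and of 6.47, 6.58, 6.41, 6.17, 7.09 and 6.30 in their 4× glands. Cow 1 was again the extreme, as the highest of all 36 arrays, while cows 2 and 5 had the higher level in the 4× gland. The mean difference was -0.55 (SE 0.19, n = 6, adjusted p = 0.194 in limma), lower in 4 of 6 cows, with an exact sign-flip p of 0.125. Without cow 1 it was -0.31 and no longer past an unadjusted p of 0.05.

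On day 23 the same probe set differed by -0.08 (SE 0.19, adjusted p = 1.00), with 5.78 to 7.38 in the 2× glands and 5.68 to 7.13 in the 4× glands. On day 40 it read 7.77, 6.44, 6.83, 6.59, 7.20 and 6.95 in the 2× glands of cows 1 to 6, against 6.43, 6.32, 6.49, 6.30, 6.84 and 5.95 in the 4× glands. The 4× gland was the lower in 6 of 6 cows. The groups overlapped, but within cows the differences ran from -1.34 in cow 1 to -0.12 in cow 2. The mean was -0.57 (SE 0.19, adjusted p = 0.18 in limma), a fold of 0.67, and the exact sign-flip p was 0.031, the smallest possible. Without cow 1 it was -0.42, lower in 5 of 5 cows. On that day the general epithelial markers differed by -0.24 ± 0.42 (SD), lower in 3 of 6 cows, by -0.83 in cow 1 and by -0.12 without it, and their part in the ATP2B1 value was not tested. The first ATP2B1 probe set was the 1 of the 7 whose difference on day 40 had the same sign in all cows.

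The second ATP2B1 probe set gave much the same values in the same cows. Its differences were -0.47 on day 21, 0.02 on day 23 and -0.45 on day 40 (SE 0.20 each), with adjusted p-values of 0.249, 1.00 and 0.217. Cow 1 had -1.59 on day 21 and -1.54 on day 40, the largest in each, and its 2× levels on those days, 8.67 and 8.55, were the 2 highest of the 36 arrays. Leaving out cow 1 gave -0.24 and -0.23, and neither was then past an unadjusted p of 0.05, nor was the day 21 value without cow 3, 4 or 6 (-0.47, -0.45 and -0.44) or the day 40 value without cow 3 or 6 (-0.48 and -0.44). Over the 18 differences, which share cows, the 2 probe sets correlated with r = 0.89 (0.84 without the day 21 pair of cow 1).

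The third ATP2B1 probe set showed no such pattern. Its differences were -0.01, 0.02 and -0.07 on days 21, 23 and 40 (SE 0.09 each), with adjusted p-values of 0.975, 1.00 and 0.648. The correlation with the first over the 18 differences was r = 0.00. Instead it separated cows: 79.3% of its spread over the arrays lay between cows and 0.596% between groups. All 6 arrays of cow 1 lay between 6.64 and 6.96, below every array of the other cows (7.15 to 7.91). For comparison, 37.2% of the spread of the first and 22.6% of that of PTHLH lay between cows. The exact sign-flip test of the first minus the third gave -0.54 and p = 0.125 on day 21 and -0.51 and p = 0.094 on day 40, so that the disagreement of the probe sets was itself not shown beyond the spread of the cows. Taken as the mean of its 3 probe sets, an alternative added after the values were seen, ATP2B1 differed by -0.34 on day 21 and by -0.36 on day 40 (SE 0.13 each, adjusted p of 0.221 and 0.189 in limma), lower in 5 of 6 and 6 of 6 cows, and by -0.18 and -0.24 without cow 1. Where each probe set lies on the transcript was not given in the annotation used here.

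**Figure D3:**
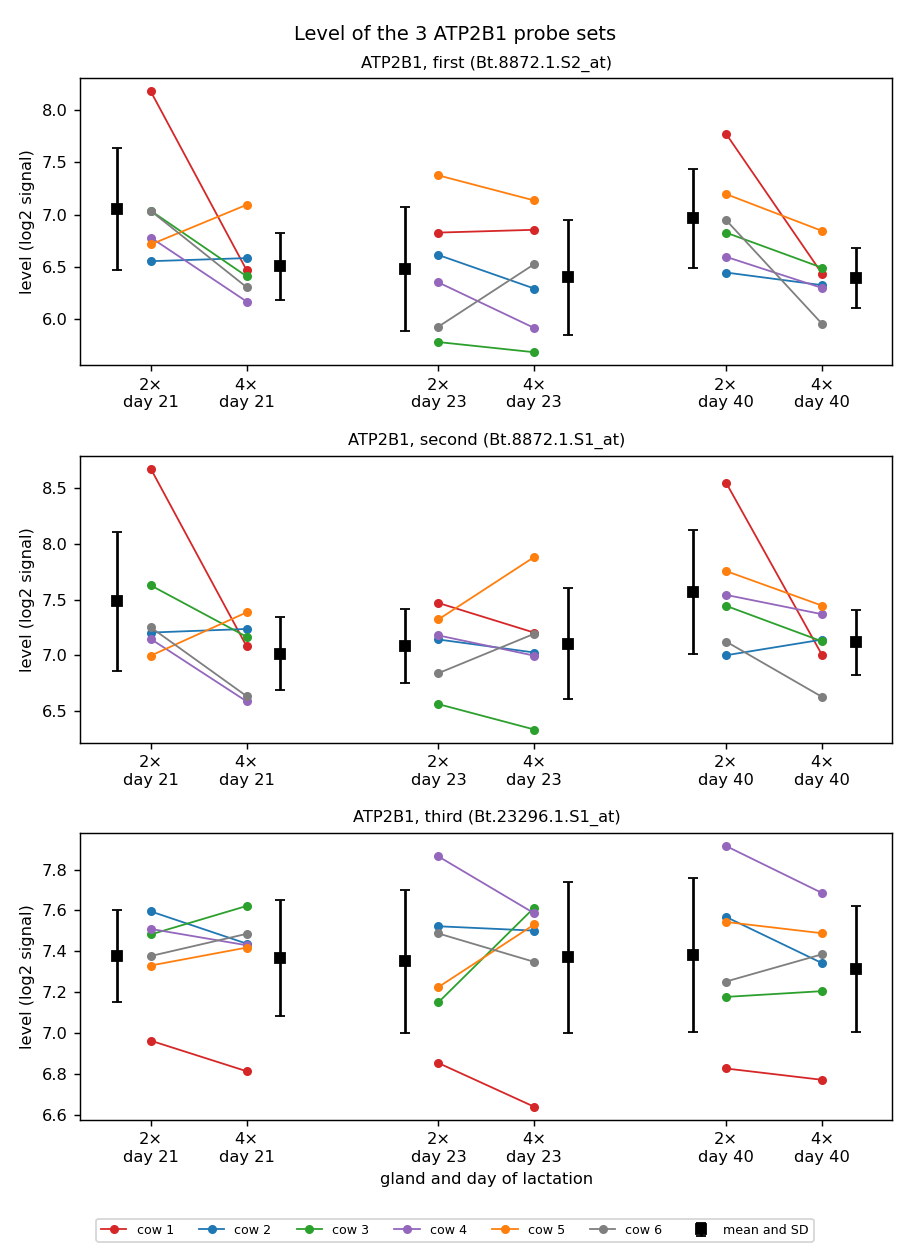
Level (log2 signal, vertical axis) of the 3 probe sets of ATP2B1 in the 2× and 4× glands on days 21, 23 and 40, with lines joining the glands of 1 cow and black squares with bars for the mean and SD of 6 cows. The first and the second had their highest values in the 2× gland of cow 1 on days 21 and 40, and on the third cow 1 lay below all other cows throughout.

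Group means of the first ATP2B1 probe set ran from 6.39 ± 0.29 (SD, n = 6) in 4× on day 40, through 6.40 ± 0.55 in 4× on day 23, 6.48 ± 0.59 in 2× on day 23 and 6.50 ± 0.32 in 4× on day 21, to 6.96 ± 0.48 in 2× on day 40 and 7.05 ± 0.59 in 2× on day 21. The widest gap in this order, 0.46 between 4× on day 21 and 2× on day 40, was not beyond the spread of the cows (exact sign-flip p = 0.094). Both rear 2× groups were on the high side. For the second the same 2 groups were the highest, 7.48 ± 0.62 on day 21 and 7.57 ± 0.55 on day 40, against 7.02 to 7.12 in the others. The group means of the third stayed between 7.31 and 7.38.

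Within the 2× gland, the first ATP2B1 probe set differed by -0.57 from day 21 to day 23 (SE 0.20, adjusted p = 0.186 in limma) and by 0.49 from day 23 to day 40 (SE 0.20, adjusted p = 0.613). The day 23 value is that of a fore gland between 2 rear gland values. The second differed by 0.48 from day 23 to day 40 (SE 0.21, adjusted p = 0.613). From day 23 to day 40 the first was not past an unadjusted p of 0.05 without cow 3 or 6 (0.37 and 0.38), nor the second without cow 1 or 3 (0.36 and 0.40). Over the 6 comparisons of days within a gland there were 5 member calls at an unadjusted p under 0.05, all in the 2× gland. From day 21 to day 23 in 2× these were PTHLH and the first ATP2B1 probe set, 2 of 7, where 16.1% of all probe sets were past it. From day 21 to day 40 in 2× it was PTHLH, 1 of 7 (6.79%), and from day 23 to day 40 in 2× the first and the second ATP2B1 probe sets, 2 of 7 (8.08%). In the 4× gland there were 0 of 7 in each, where 3.8%, 8.68% and 6.55% of all probe sets were past it from day 21 to 23, from 21 to 40 and from 23 to 40. The first and the second ATP2B1 probe sets had differences between the glands that moved from day 21 to day 23 by 0.47 (SE 0.27, adjusted p = 0.527) and 0.49 (SE 0.28, adjusted p = 0.516), or by 0.21 and 0.32 without cow 1. From day 23 to day 40 the step in the 2× gland was not tested against that in the 4× gland.

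ATP2B2 makes PMCA2, known from mouse milk-secreting cells as the apical pump that moves calcium into milk. Its probe set was dim here: the mean level was 3.49, above 8.49% of probe sets, and the 36 arrays ran from 3.19 to 3.75. Whether it was above the background of the arrays could not be read from these values. The differences were 0.07, -0.05 and 0.07 on days 21, 23 and 40 (SE 0.08 each, adjusted p of 0.692, 1.00 and 0.611), and group means lay between 3.42 in 2× on day 40 and 3.56 in 4× on day 21. Between neighbours in the order, the exact sign-flip test of the steps within cows gave p of 0.562 or more.

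ATP2C1, the secretory pathway pump SPCA1, which fills the Golgi with calcium and manganese, had a mean level of 8.75, above 89.3% of probe sets. On day 21 it read 8.63 to 9.17 (median 8.85) in the 2× glands and 8.56 to 9.10 (median 8.74) in the 4× glands, and on day 40 it read 8.53 to 8.96 (median 8.77) and 8.32 to 8.96 (median 8.68). The glands overlapped on each day. The differences were -0.09, 0.02 and -0.10 (SE 0.13 each), with adjusted p-values of 0.771, 1.00 and 0.658 and with 2, 3 and 3 of 6 cows positive. Cow 1 had -0.43 on day 21 and -0.64 on day 40, and without it the differences were -0.02 and 0.01. Group means lay between 8.66 in 4× on day 40 and 8.87 in 2× on day 21. Between neighbours in the order, the exact sign-flip test of the steps within cows gave p of 0.438 or more. Just 6.07% of its spread lay between cows, the least of the 7 probe sets.

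Around the members, 115 further genes of serotonin, of PTH family signalling and of calcium handling were listed and 67 were measured by symbol, each through its brightest probe set. No gene of these lists passed an adjusted p of 0.05. At an unadjusted p under 0.05, 7 were higher and 4 lower in the 4× gland on day 21, 3 higher and 0 lower on day 23, and 11 higher and 6 lower on day 40. Over all 9155 genes, 8.29% were higher and 9.61% lower on day 21, 1.41% and 1.07% on day 23, and 8.9% and 9.51% on day 40. The medians over the 67 genes were 0.03, 0.02 and 0.03 on days 21, 23 and 40, beside 0.01, 0.00 and 0.00 over all genes.

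Of the serotonin synthesis genes, DDC, the enzyme that completes serotonin after TPH1, differed by 0.06, 0.03 and 0.13 on days 21, 23 and 40 (SE 0.13 each) at a dim mean level of 4.84. Among the makers and recyclers of tetrahydrobiopterin, the cofactor that TPH1 needs, PCBD1 was higher in the 4× gland on day 21 in 6 of 6 cows, by 0.28 (SE 0.12, adjusted p = 0.244 in limma), and by 0.11 without cow 1. It was the 1 gene of 6 measured of 7 whose brightest probe set was past an unadjusted p of 0.05 on any day. QDPR, another gene of this list, had a dimmer probe set past it on day 40, at 0.26 (SE 0.09, adjusted p = 0.183 in limma), whereas its brightest gave 0.01. GCH1, which starts that cofactor's synthesis, differed by 0.15, 0.00 and 0.16 (SE 0.11), and the list's medians were 0.04, 0.06 and 0.06.

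MAOA, the mitochondrial enzyme that breaks serotonin down, was the gene of the transport and breakdown list (7 measured of 9) that was past an unadjusted p of 0.05, and it was so on each of the 3 days. Its differences were 0.30 on day 21, 0.27 on day 23 and 0.27 on day 40 (SE 0.10 each). It was higher in the 4× gland in 6, 6 and 5 of 6 cows, and adjusted p-values were 0.184, 1.00 and 0.19. Without cow 1 the values were 0.30, 0.29 and 0.26, so that cow 1 did not carry them. On day 23, where few probe sets were past the threshold, MAOA was thus 1 of them, and whether its course differed from that of PTHLH was not tested. MAOB differed by 0.17, 0.03 and 0.21 (SE 0.11), and SLC6A4, the serotonin reuptake transporter, by -0.12, -0.10 and 0.14 (SE 0.12) at a mean level of 4.71.

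The serotonin receptors, which pass the signal into the cell, had 8 genes measured of 14. None was past the threshold on day 21 or on day 23, and the medians were 0.08 and 0.00. On day 40, 5 of 8 were past it, all higher in the 4× gland, and the median was 0.23. HTR2A differed by 0.28 (SE 0.12, adjusted p = 0.216), HTR1A by 0.23 (SE 0.09, adjusted p = 0.199) and HTR2C by 0.23 (SE 0.10, adjusted p = 0.216), each higher in 5 of 6 cows. Without cow 1 the HTR2C value was 0.15. HTR1D and HTR4 were the others past it, and HTR2B, at 0.28 (SE 0.14), was not. HTR1A, HTR1D, HTR2C and HTR4 each had another, dimmer probe set, and none of these was past the threshold on day 40 (-0.02 to 0.22). These probe sets were dim, with means from 4.10 to 6.54. Dim genes as a whole leaned the same way on day 40: of 4298 genes with a mean under 7, 16.0% were higher and 4.91% lower in the 4× gland, whereas of 4857 brighter genes 2.66% were higher and 13.6% lower. The part of this lean in the receptor values, in the day 40 value of MAOA (mean level 6.37) and in those of the other lists was not tested.

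Of the PTH family and the receptors around it, 6 genes were measured of 13 besides PTHLH. PTH1R, the receptor for PTHLH, differed by -0.01, -0.02 and -0.06 (SE 0.08 each) at a mean level of 5.05. PTH, the hormone of the parathyroid gland, had a dim mean of 4.23 and differed by 0.34 on day 40 (SE 0.09, adjusted p = 0.171). RAMP1 and RAMP2, accessory proteins of calcitonin family receptors, differed on day 21 by -0.23 (SE 0.09, adjusted p = 0.241) and 0.24 (SE 0.10, adjusted p = 0.255). RAMP2 was higher in 3 of 6 cows and its value was 0.09 without cow 1, and the other probe set of RAMP1 gave 0.14, not past the threshold. RAMP3 differed by 0.23 on day 40 (SE 0.08, adjusted p = 0.188), and CALCRL was not past the threshold on any day.

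Partners of CASR signalling that were past the threshold on their brightest probe set were lower in the 4× gland. Of 11 measured of 16, 0 were higher and 3 lower in the 4× gland on day 21 (ARRB1, FLNA and RAMP1). Over all genes 8.29% were higher and 9.61% lower that day. On day 40, 0 were higher and 4 lower (GNAI1, GNAI2, FLNA and GNA11), beside 8.9% and 9.51% of all genes. Of all genes with a mean of at least 7, 2.66% were higher and 13.6% lower on day 40. FLNA, the filamin that anchors CASR to the cytoskeleton, differed by -0.39 on day 21 and -0.31 on day 40 (SE 0.14 each, adjusted p of 0.196 and 0.224 in limma), and by -0.24 and -0.19 without cow 1. Its other probe set gave 0.24 and 0.12, not past the threshold. ARRB1, an arrestin that switches off receptors, differed by -0.33 on day 21 (SE 0.11, adjusted p = 0.182) and by -0.04 on day 40. The inhibitory G protein subunits GNAI1 and GNAI2 both differed by -0.33 on day 40 (adjusted p of 0.18 and 0.197), and GNAI2 by -0.19 without cow 1. PLCB4, a phospholipase downstream of the receptor, gave -0.08 on day 40 on its brightest probe set, but 0.22 and 0.21 on 2 others, both past the threshold as higher in the 4× gland. GNAS, the stimulatory subunit, had 5 probe sets that disagreed, with 1 past the threshold as higher on day 21 and another as lower on day 40.

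Among the other calcium pumps and exchangers listed with ATP2B1 (4 measured of 11), ATP2B4 makes the plasma membrane pump PMCA4. It differed by 0.21, 0.02 and 0.24 on days 21, 23 and 40 (SE 0.10 each, adjusted p = 0.214 in limma on day 40). The day 21 value was not past the threshold, was positive in 4 cows and negative in 2, and was 0.11 without cow 1. On days 21 and 40 the sign was opposite to that of the first and the second ATP2B1 probe set. Whether ATP2B4 and ATP2B1 moved in opposition was not tested. ATP2B4 had a mean level of 5.15, among the genes under 7 that as a whole leaned higher on day 40. SLC24A1, a sodium and calcium exchanger, differed by 0.25 on day 40 (SE 0.11, adjusted p = 0.222). SLC8A1, the main exchanger of that type in heart, had 4 probe sets, of which 1 on day 21 and 2 on day 40 were past the threshold as higher in the 4× gland, but not its brightest. SLC8B1 differed by -0.21 on day 21 and -0.23 on day 40 (SE 0.12 each), not past the threshold, and by -0.10 and -0.16 without cow 1.

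Of the pumps and regulators inside the cell, ATP2A2, the endoplasmic reticulum pump SERCA2, differed by 0.19 on day 21 (SE 0.08, adjusted p = 0.24), and all 4 of its probe sets were past an unadjusted p of 0.05 that day, at 0.19 to 0.27. Without cow 1 the 4 values were 0.10 to 0.15. TMEM165, a Golgi membrane protein of calcium and manganese homeostasis, was higher in the 4× gland on day 21 in 6 of 6 cows, by 0.44 (SE 0.13, adjusted p = 0.18 in limma) and by 0.30 without cow 1, and differed by -0.17 on day 23. Its difference moved by -0.61 between these days. SRI, the cytosolic calcium-binding protein sorcin, went the other way, with -0.41 on day 21, 0.32 on day 23 and -0.31 on day 40 (SE 0.12 each, adjusted p of 0.181, 1.00 and 0.201), a move of 0.73 from day 21 to day 23 that was positive in 6 of 6 cows. Without cow 1 the SRI values on the 3 days were -0.25, 0.23 and -0.31. Its 2 dimmer probe sets were past the threshold as lower on day 40 (-0.26 and -0.36) and not on days 21 and 23.

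Genes of calcium entry, release and binding gave few calls. STIM1, the sensor of the endoplasmic reticulum store, differed by -0.33 on day 40 (SE 0.11, adjusted p = 0.178), lower in 6 of 6 cows, and its channel ORAI1 by 0.27 on day 21 (SE 0.14), not past the threshold and 0.08 without cow 1. Another ORAI1 probe set was past it as higher in the 4× gland on days 21 and 40, at 0.56 and 0.42 (SE 0.20 each, adjusted p of 0.191 and 0.235), and gave 0.35 and 0.48 without cow 1. On day 40 its differences in the cows ran from 0.02 to 1.39. ITPR1, a calcium release channel, was near 0 on its brightest probe set (-0.08 on day 21 and -0.12 on day 40, SE 0.07), and another of its 5 probe sets differed by -0.85 and -0.77 (SE 0.29), or -0.56 and -0.60 without cow 1. ITPR2 was the 1 release channel past the threshold on day 23, at 0.22 (SE 0.09, adjusted p = 1.00) and 0.10 without cow 1. Its other probe set was past it too, at 0.26 with and without cow 1. On that probe set the cows ran from -0.19 to 1.10, with an exact sign-flip p of 0.156. Of the calcium-binding proteins of the secretory pathway, CALR and NUCB2 had positive differences on day 21, 0.37 (SE 0.14, adjusted p = 0.208) and 0.40 (SE 0.15, adjusted p = 0.21), which were 0.23 and 0.18 without cow 1. S100G, a cytosolic calcium carrier of gut, had a dim mean of 3.43 and differed by 0.19 on day 40 (SE 0.08, adjusted p = 0.203).

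**Figure D4:**
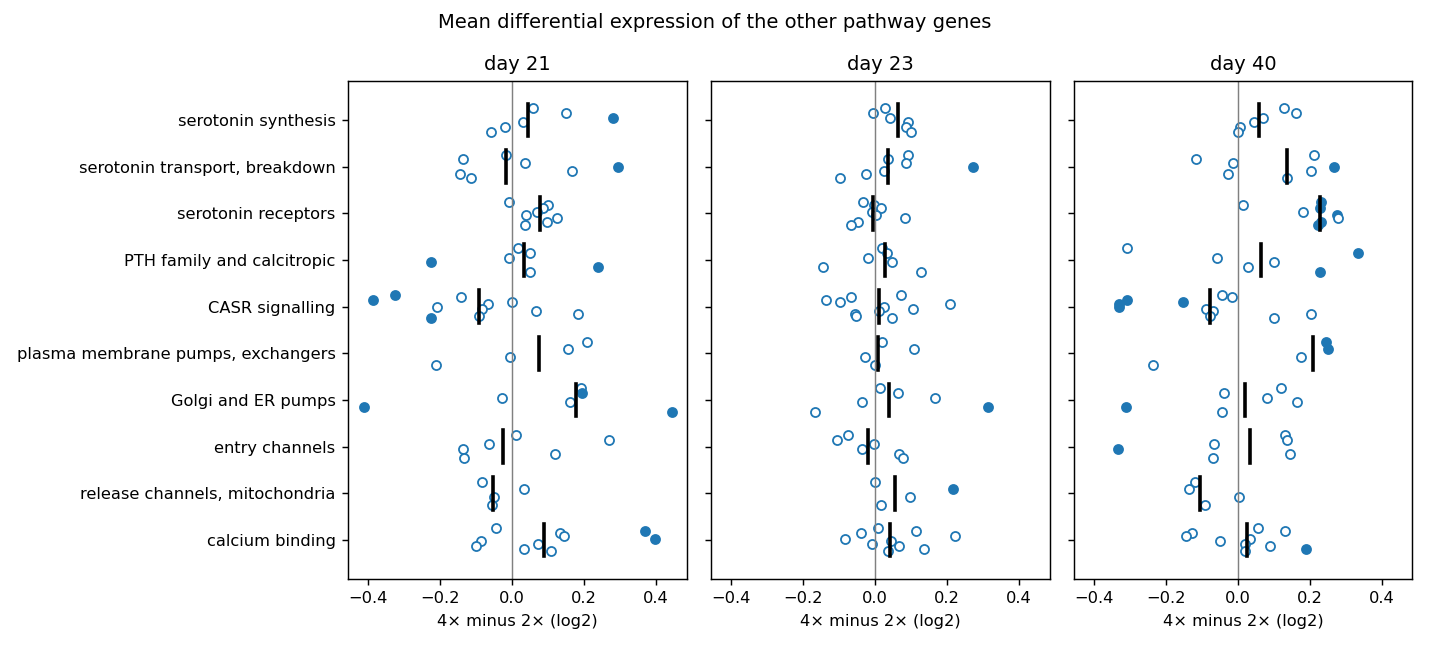
Mean difference 4× minus 2× (log2, horizontal axis) on days 21, 23 and 40 of the 67 measured genes in 10 lists around the members. Each gene of a list is 1 circle, filled where the unadjusted limma p was under 0.05, with a black line at the median of each list. RAMP1 is in the PTH family list and in the CASR signalling list and has a circle in each. On day 40 the serotonin receptors had 5 filled circles of 8 to the right of 0 and a median of 0.23, and on day 23 there were filled circles in 3 lists.

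As a description of likeness, the genes with a mean level of at least 5 whose 18 differences correlated best with those of each member were found among about 7648 genes; the differences share cows, and no test was made. PTHLH was most like SELENOF, EZH2, LPL, ALOX15 and ACSL1, with Pearson r of 0.97 to 0.98. Without the day 21 pair of cow 1, r was 0.85 to 0.87, so that 1 pair made part of it. For CASR they were ALOX12B, CDCA3, CCL25, COL6A2 and PCYOX1L (0.87 to 0.91). The first ATP2B1 probe set was most like FAM3C, SEPTIN2, DSC2, GNPAT and BTG1 (0.92 to 0.96, and 0.89 to 0.95 without that pair). The second was most like OTUD4, PKP4, TGFB2, FMO5 and EXOC5 (0.91 to 0.95, and 0.87 to 0.93 without it). The third, the one with the highest mean, had lower values, with PI4K2A, VCAM1, IL2RG, GCNT1 and MAN2A2 at 0.64 to 0.71. The dim ATP2B2 probe set was most like GRK2, PICK1, LOC280930, L3MBTL2 and MYOZ3 (0.76 to 0.79). ATP2C1 was most like UBXN2A, RALGAPA1, CSNK2A1, NFIA and ZNF609 (0.80 to 0.84).

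Between members, CASR differences correlated over the 18 pairs with those of ATP2B2 (r = 0.65), and inversely with ATP2C1 (-0.61) and with the first probe set of ATP2B1 (-0.59). These values were 0.62, -0.58 and -0.58 without the day 21 pair of cow 1. The ATP2B2 probe set was dim (mean level 3.49), and whether it was above the background could not be read. PTHLH and the first ATP2B1 probe set gave -0.58 over all pairs and -0.13 without that pair, so that their inverse relation rested on cow 1 on day 21. All 18 points share 6 cows and the array scaling.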

How the data were processed

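Mammary biopsies of 6 cows were hybridised 1 to an array (36 arrays, GeneChip Bovine Genome Array). The deposited values are log2 signals, which the authors background corrected, normalised across arrays and summarised per probe set with the Robust Multichip Average (RMA; version not given in the sources used here). Such normalisation sets arrays to 1 distribution, so a shift shared by most probe sets is not seen. Of 24128 probe sets, 112 controls were left out. Genes were named by platform annotation: 13318 of all probe sets had 1 symbol, 86 several and 10724 none.

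Differences between glands of a cow were fitted with limma 3.58.1 (R 4.3.3; lmFit and eBayes, spread shared by the 3 days), and day differences within a gland on all 36 arrays with cow as a term. p-values were adjusted (Benjamini-Hochberg) over all probe sets, and shares past an unadjusted p of 0.05 were counted over the same table. The code was tested on simulated data. Pairing came from the cow named in the labels: deviations of the glands of 1 cow and day correlated in 18 of 18 pairs (0.242 to 0.665). The number of cows limits the precision.

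The members and lists were chosen with earlier results of these data known. All probe sets of members were named. Of each further list, the up to 3 genes with the smallest unadjusted p under 0.05 and the direct counterparts of a member were named, and for likeness the 5 genes of highest r. Alternatives were the pairing, moderation, scaling, a filter at a mean of 5, 1 probe set per gene, each cow left out and the day 21 pair of cow 1 left out. Figures were drawn with matplotlib 3.10.9.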

Additional observations from a re-analysis of the deposited data

Results flagged for a closer look

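Of 77 groups of 6 values of the members (levels in a group, differences on a day or changes between days), 10 held 1 value far from the other 5 (Dixon's test, for which chance picks about 1 in 20 groups). PTHLH gave 5 of them. Its level in the 2× gland of cow 1 on day 21 (7.43) was far below the other cows, and its level in the 4× gland of cow 4 on that day (10.74) was above them. The PTHLH difference of cow 1 on day 21 (2.74) was far above those of the other cows, and the changes of that difference in cow 1 to day 23 (-2.86) and to day 40 (-2.61) were far below. ATP2B1 gave 4. The first probe set was far above the other cows in the 2× gland of cow 1 on day 21 (8.18), the third was far below them in the 4× gland of cow 1 on days 21 and 23 (6.81 and 6.64), and on the second the change from day 21 to day 40 in cow 5 was -0.70. For CASR the change from day 21 to day 40 in cow 4 was 0.44, far above the other cows. Cow 1 held 7 of the 10 values.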

How the results depend on the processing

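No value of a member past an unadjusted p of 0.05 changed sign under any alternative. Of 1029 single values over 17 settings, 1001 kept their side of that threshold, 23 lost it and 5 gained it. The PTHLH difference on day 21 and its change to day 23 stayed past it in every setting. The cause of the following moves was not tested.

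Without the replicate block, which pairs the glands of a cow, the second ATP2B1 probe set was no longer past the threshold on day 21 (-0.47) or day 40 (-0.45), 1 member was past it on day 40 in place of 2, and 3 day differences within a gland in place of 5. Without moderation the same probe set missed it on day 21 (-0.47) and day 40 (-0.45), leaving 1 member on day 40, and with a separate spread for each day it missed it on day 21 (-0.47). With 1 probe set per gene, which drops the first and the second of ATP2B1, 1 member was past it on day 21 and 0 on day 40. With ATP2B1 as the mean of its probe sets, chosen after seeing the data, 1 was past it on day 40. Without the day 21 pair of cow 1, 1 member was past it on day 21, and the first and the second ATP2B1 probe set stood at -0.31 and -0.24.

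Leaving out each cow in turn gave 1 to 3 members past the threshold on day 21 (1 without cow 1), 1 to 2 on day 40 (1 without cow 1, 3 or 6), 1 to 2 for the change to day 23 (2 without cow 2 or 5) and 3 to 6 day differences within a gland (3 without cow 1 or 3). On day 21 the second ATP2B1 probe set ranged from -0.64 to -0.24 and the first from -0.73 to -0.31, and on day 40 the second from -0.57 to -0.23.

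By adjusted p, limma called 0 of 24016 probe sets in each comparison of the glands (3826, 635 and 4910 at an unadjusted p under 0.05 on days 21, 23 and 40), and without moderation 1 on day 21 and 0 elsewhere.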
